A study of Mus musculus with 2 samples.

Results

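Single-cell RNA-seq counts of Dppa2, Dppa3, Dppa4, Dppa5a and Ooep were examined in mouse naive, primed and reverting pluripotent cells. These 5 genes, of 33963 in the table, were chosen by symbol, and the choice followed from their measured levels by population and from the spread of those levels between cells. Their levels, their ratios between populations and their spread between cells are therefore descriptions. Naive cells were mESCs of the Rex1-GFP line, cultured in 2iL (inhibitors of MEK and GSK3 with LIF). Primed cells were mEpiSCs of the Oct4GIP line, whose Oct4 promoter drives GFP and puromycin resistance, kept in FGF2 and Activin A and placed on MEF feeders for 1 day before reversion. The d8 and d16 populations were Oct4GIP cells treated with the AMPK activator AICAR plus LIF in Basal medium for 8 or 16 days on MEF feeders. The d16+10p population was the d16 culture after expansion for 10 passages in 2iL. The strain was given as 129/Ola throughout. Each population was 1 tagged sample of 1 line in 1 pooled library, so no test between populations was possible, and line and culture cannot be told apart where naive cells are compared with the others.

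All 5 genes are known from early embryos, germ cells and naive pluripotent cells. Dppa5a (also Esg1) and Ooep (also Floped) encode small proteins with KH or KH-like domains, a fold that binds RNA. Ooep belongs to the subcortical maternal complex of the egg. Dppa2 and Dppa4 encode SAP-domain chromatin proteins that act as partners and are known to activate genes of the 2-cell stage and to occupy promoters that carry both active and repressive marks. Dppa3 (also Stella) encodes a maternal protein that binds Uhrf1 and thereby limits maintenance of DNA methylation.

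The genes lie in 3 places (GENCODE M21, GRCm38). Dppa5a (ENSMUSG00000060461) is at chr9:78367052-78368177 and Ooep (ENSMUSG00000032346) at chr9:78376109-78378725, both on the minus strand and 7931 bp apart. Dppa4 (ENSMUSG00000058550, chr16:48283733-48294237) and Dppa2 (ENSMUSG00000072419, chr16:48303908-48319723) are on the plus strand of chromosome 16, with 9670 bp between them. Dppa3 (ENSMUSG00000046323) is at chr6:122626410-122630272 on the plus strand, 77216 bp from Nanog.

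Reads were assigned to gene symbols by mapping to transcripts, so near-identical copies bear on the counts of Dppa5a, the most abundant member. Dppa5b, an unprocessed pseudogene 120916 bp from Dppa5a, has its closest stretch at the start of the coding sequence. The first 240 coding bases of Dppa5a and the matching 238 bases of Dppa5b (both from GENCODE M21 transcripts) are shown because a read from most of this stretch differs between the copies at few positions. Capitals mark the 8 bases that differ.
Dppa5a: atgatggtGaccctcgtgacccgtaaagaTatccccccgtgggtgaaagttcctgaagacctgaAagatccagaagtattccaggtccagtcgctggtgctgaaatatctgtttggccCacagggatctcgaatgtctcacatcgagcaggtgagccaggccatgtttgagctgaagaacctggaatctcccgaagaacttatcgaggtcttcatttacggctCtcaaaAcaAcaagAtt
Dppa5b: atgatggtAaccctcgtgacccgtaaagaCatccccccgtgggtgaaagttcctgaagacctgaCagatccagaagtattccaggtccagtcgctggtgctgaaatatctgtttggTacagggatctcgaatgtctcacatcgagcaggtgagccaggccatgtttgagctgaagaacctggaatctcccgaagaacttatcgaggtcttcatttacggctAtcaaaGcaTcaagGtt
Counted from 1 at the start codon of Dppa5a, the substitutions in this stretch were G9A, T30C, A65C, C119T, C224A, A230G, A233T and A238G, and the alignment left out 2 bases of Dppa5a between bases 116 and 119. Up to base 298, 9 of 296 aligned bases differed, and beyond it 30 of 52. A second pseudogene, Dppa5c, differed from Dppa5a at the same positions.

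The share of sequence words of 50 bases that also occurred in transcripts of another gene was 38.6% for Dppa5a, 31.3% for Dppa4, 29.1% for Dppa2, 16.5% for Dppa3 and 1.34% for Ooep. The pseudogenes that share words with Dppa5a were low, for example Dppa5b at 3.59 CPM in naive and 4.28 CPM in d16 Pou5f1-high cells. An exception was Pigp, a protein-coding gene of GPI anchor synthesis, which shared 12.3% of the words of Dppa5a. Its level was 69.1 CPM in naive, 72.5 in primed, 73.4 at d8, 316 at d16 and 257 in d16+10p Pou5f1-high cells. Pigp thus stood near the same level in naive and primed cells, where Dppa5a differed. At d16 it was higher than in primed cells, as was Dppa5a. How reads of shared words were divided between the genes was not tested. With the reads of the 5 genes that shared most of its words added (Gm15310, Gm6798, Pigp, Gm6083 and Dppa5b), the log2 ratio of Dppa5a between d16 and primed cells was 3.52, against 3.76 without them.

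In all, 17720 cells were sequenced to between 3179 and 111822 reads each, 307121033 reads in total. Levels are given in CPM, the reads of a gene summed over the cells of a population per 1000000 reads summed over the same cells. Cells with at least 150 CPM of Pou5f1, which encodes Oct4, are called Pou5f1-high. They made up 68.3% of the 801 naive cells, 32.3% of the 1826 primed cells, 11.7% of the 9627 cells at d8, 28.3% of the 4315 cells at d16 and 75.5% of the 1151 cells at d16+10p. Their median depth was 22969, 18385, 14643, 13846 and 24054 reads, in that order. Intervals in parentheses are 95% intervals (exact Poisson for levels, Clopper-Pearson for shares, from the binomial for ratios). They cover counting error only, because amplified reads without molecular identifiers are not independent molecules. By the paper's methods, 500 cells were collected for the naive tag and 500 for the primed tag. Their Pou5f1-high cells alone, 547 and 589, were above this. The d8 tag held 9627 cells against 9000 collected, and the d16 tag 4315 against 9000. For d16+10p it was 1151 against 1000. How the excess arose was not tested. Summed marker levels, which do not test the tag of single cells, followed the labels. For 5 naive markers (Zfp42, Esrrb, Tfcp2l1, Klf2 and Nr5a2) the sum was 1220 CPM in naive and 129 in primed Pou5f1-high cells. It was 110 CPM at d8, 998 at d16 and 992 in d16+10p Pou5f1-high cells. For 6 primed markers it was 69.9, 554, 330, 82.0 and 69.3 CPM. Among fibroblast markers (8 genes, none at 0) the sum ranged from 516 to 774 CPM in these cells and from 1024 to 3485 CPM in Pou5f1-low cells, which can include feeders where MEFs were present, and among macrophage markers (10 genes, none at 0) from 338 to 1111 CPM, highest in d8. For 5 epithelial markers, none at 0, it was 3647 CPM in d8 and 563 to 906 CPM in the other populations. Their part in the values below was not tested.

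A comparison group that should lack the members was formed by 863 cells of any tag with at least 10000 CPM of the macrophage markers. Near this limit, from 0.5 to 2 times it, lay 341 cells. These cells held Dppa5a at 181 CPM, Dppa3 at 9.12, Ooep at 7.99, Dppa2 at 5.33 and Dppa4 at 2.07 CPM. In primed Pou5f1-high cells Dppa2 (10.9 CPM) and Dppa5a (246 CPM) were above these values with intervals apart, as was Dppa5a in d8 (206 CPM), and the intervals of the remaining values of primed and d8 cells overlapped. The other populations were at least 3 times above for every member. The intervals do not cover the spread between cells, and the median primed Pou5f1-high cell held 66.6 CPM of Dppa5a. For a comparison of shares, 5000 reads were drawn at random from every cell, and cells with fewer were not used (between 13 and 102 per population of Pou5f1-high cells, and 102 macrophage-marker cells, whose median depth was 17359 reads). In primed and in d8 Pou5f1-high cells the thinned share of cells with a read had an interval that overlapped that of the macrophage-marker cells for each of the 5 members. Overlap does not show that the shares are equal: in primed cells all 5 shares were above those of the macrophage-marker cells, and in d8 cells 4 were. Whether free RNA gave these reads was not tested.

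**Figure D1:**
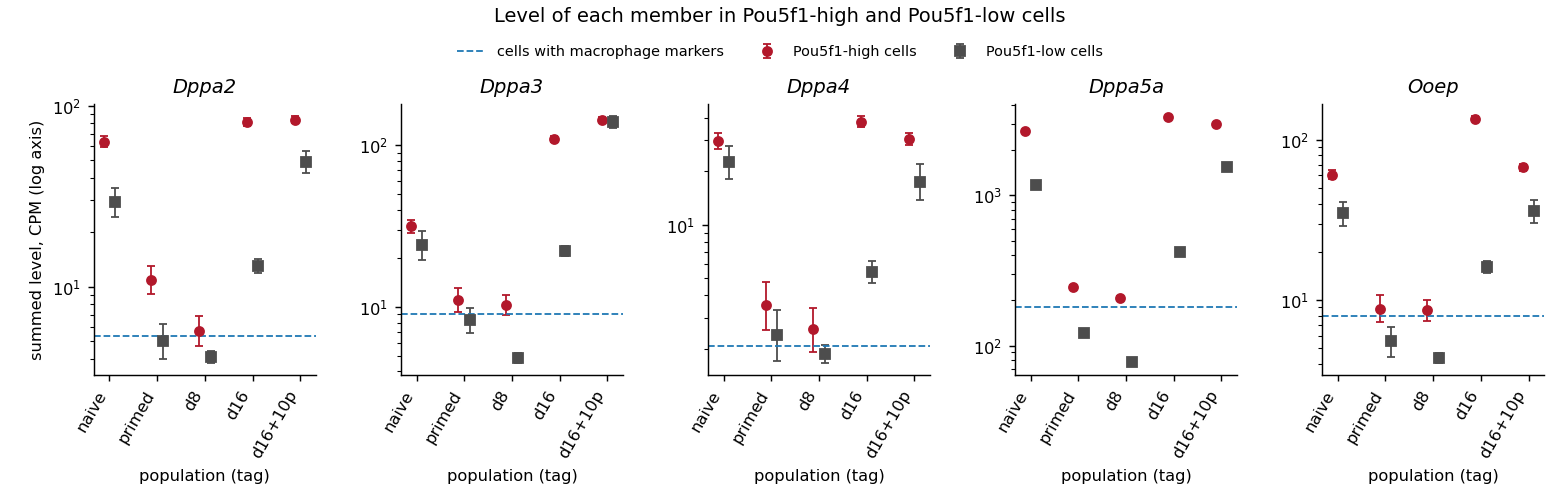
Summed level of each member in CPM (log axis) by population, in Pou5f1-high (red circles) and Pou5f1-low cells (gray squares), with 95% Poisson intervals as bars. The dashed line is the level in cells with macrophage markers. Naive, d16 and d16+10p Pou5f1-high cells lie above the line for all 5 genes. Primed and d8 Pou5f1-high cells lie above it by less. Their intervals are apart from those of the macrophage-marker cells for Dppa2 and Dppa5a in primed and for Dppa5a in d8.

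Dppa5a was high in naive, d16 and d16+10p cells and low in primed and d8 cells. Its level in Pou5f1-high cells was 2680.5 CPM (2653 to 2708) in naive, 246 CPM (237 to 255) in primed, 206 CPM (200.1 to 213) at d8, 3341 CPM (3316 to 3367) at d16 and 2965 CPM (2942 to 2988) in d16+10p. The order was thus d16, d16+10p, naive, primed and d8, and no interval overlapped its neighbour. These intervals leave out the spread between cells. In Pou5f1-low cells the levels were 1180 CPM in naive, 121 in primed, 77.9 at d8, 423 at d16 and 1546 in d16+10p. Over all cells of a tag, d16 stood below both 2iL populations, with 1450 CPM against 2739 in d16+10p and 2343 in naive. Of its cells 71.8% were Pou5f1-low. The unthinned share of Pou5f1-high cells with a Dppa5a read was 96.2% in naive, 69.3% in primed, 58.1% at d8, 90.6% at d16 and 99.2% in d16+10p. In macrophage-marker cells it was 57.9%. After thinning the shares were 95.9%, 33.0%, 32.1%, 90.2% and 97.7%, and 29.0% in macrophage-marker cells.

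Single cells differed between d16 and the other high populations. The median cell held 2613 CPM of Dppa5a in naive, 66.6 in primed, 50.04 at d8, 3306 at d16 and 3054 in d16+10p. At 4000 CPM or more stood 37.2% of d16 cells, but 14.1% of naive and 18.99% of d16+10p cells. At the other end, 9.35% of d16 cells had no Dppa5a read, against 3.84% of naive and 0.806% of d16+10p cells. The d16 Pou5f1-high cells thus held both more cells at the top and more cells without a read than either 2iL population, at a lower median depth.

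**Figure D2:**
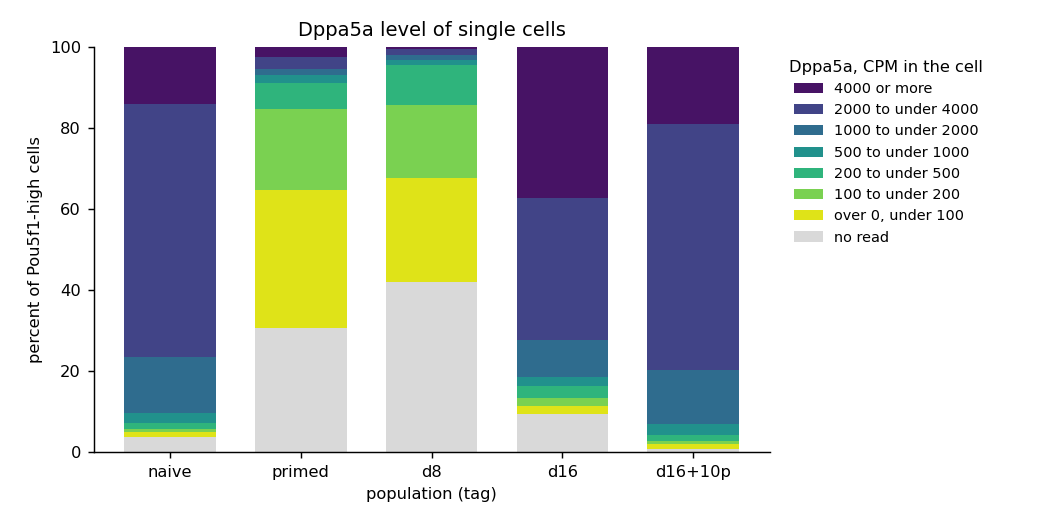
Percent of Pou5f1-high cells of each population (y axis) in 8 classes of Dppa5a level, from no read (gray) to 4000 CPM or more (dark purple). The top class holds 37.2% of d16 cells, 14.1% of naive and 18.99% of d16+10p cells, and most primed and d8 cells lie under 200 CPM.

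Ooep, the maternal complex gene next to Dppa5a, was highest in d16. Its level in Pou5f1-high cells was 60.8 CPM (56.6 to 65.1) in naive, 8.85 (7.25 to 10.7) in primed, 8.63 (7.38 to 10.0) at d8, 135 (130.3 to 141) at d16 and 67.5 CPM (64.1 to 71.0) in d16+10p. The d16+10p and naive intervals overlapped, as did those of primed and d8. In Pou5f1-low cells the values were 34.8, 5.51, 4.36, 16.1 and 35.9 CPM in the same order. Thinned shares of Pou5f1-high cells with a read were 23.5% in naive, 4.68% in primed, 1.86% at d8, 37.9% at d16 and 25.1% in d16+10p, and 2.23% in macrophage-marker cells. The d8 share was under that of the macrophage-marker cells, with intervals that overlapped. Unthinned, the shares of naive, d16 and d16+10p cells were close to each other, at 59.0%, 58.0% and 59.1%, with the d16 cells sequenced less deeply. The unthinned share in macrophage-marker cells was 7.42%.

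Dppa2, the SAP-domain gene, was measured at 63.3 CPM (59.1 to 67.7) in naive, 10.9 (9.13 to 12.9) in primed, 5.68 (4.68 to 6.84) at d8, 81.4 (77.5 to 85.5) at d16 and 83.8 CPM (80.03 to 87.7) in d16+10p Pou5f1-high cells. The intervals of d16 and d16+10p overlapped, and all other neighbours in the order were apart. Dppa4, its partner, was measured at 29.6 CPM (26.8 to 32.7) in naive, 3.55 (2.57 to 4.79) in primed, 2.59 (1.93 to 3.40) at d8, 37.9 (35.2 to 40.7) at d16 and 30.3 CPM (28.1 to 32.7) in d16+10p. For Dppa4, d16 was highest, naive and d16+10p overlapped, and primed and d8 overlapped. Both partners were low in primed and d8 cells and high in the rest, and Dppa4 but not Dppa2 was lower in d16+10p than in d16 cells. Thinned shares in naive, d16 and d16+10p cells were 21.6%, 26.0% and 28.4% for Dppa2 and 9.38%, 15.2% and 10.7% for Dppa4, with 1.97% and 0.657% in macrophage-marker cells. Unthinned shares in these populations were 55.6%, 45.2% and 67.8% for Dppa2 and 38.8%, 31.1% and 39.9% for Dppa4. In macrophage-marker cells they were 5.79% and 3.48%. The thinned shares in primed and d8 cells were 4.32% and 2.45% for Dppa2 and 2.34% and 1.27% for Dppa4. In Pou5f1-low cells, unlike in Pou5f1-high cells, both genes were higher in naive and d16+10p than in d16, with Dppa2 at 29.4 CPM in naive, 49.0 in d16+10p and 12.96 in d16 cells, and Dppa4 at 22.4, 17.5 and 5.42 CPM.

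Dppa3 was the member in which naive and expanded cells differed most. Its level in Pou5f1-high cells was 31.6 CPM (28.6 to 34.7) in naive, 11.1 (9.28 to 13.1) in primed, 10.3 (8.93 to 11.8) at d8, 109.9 (105 to 115) at d16 and 143 CPM (138 to 148) in d16+10p. The 2 populations from AICAR-treated cells with high Dppa5a were thus highest, naive cells were lower than both, and primed and d8 overlapped. In Pou5f1-low cells the levels were 24.2, 8.30, 4.84, 22.3 and 139 CPM. In d16+10p the level in Pou5f1-low cells was thus close to that in Pou5f1-high cells. Thinned shares of Pou5f1-high cells with a read were 10.9% in naive, 5.05% in primed, 3.43% at d8, 27.7% at d16 and 37.9% in d16+10p, and 2.23% in macrophage-marker cells. Unthinned, they were 25.2%, 10.7%, 8.46%, 39.6% and 64.6%, and 7.07%.

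Per kilobase of the longest annotated transcript, Dppa5a stood far above the rest. It reached 4330 CPM per kb in naive, 5398 at d16 and 4790 in d16+10p Pou5f1-high cells. Dppa3 was the next in each of these populations, with 37.9, 132 and 172 CPM per kb. The remaining members lay between 20.03 and 63.4 CPM per kb, and Ooep was the highest of them in naive and d16 cells. Whether reads scale with transcript length in this library was not tested. Without the division, Dppa3 (31.6 CPM) was below Dppa2 (63.3 CPM) and Ooep (60.8 CPM) in naive cells.

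The d16 cells were set against the primed population from which they were derived. Ratios are on the log2 scale with 1 CPM added to each level, and their intervals are those of the ratio without this addition, so they lie off centre for low levels. The log2 ratio of d16 over primed Pou5f1-high cells was 3.79 (3.66 to 4.23) for Ooep, 3.76 (3.71 to 3.82) for Dppa5a, 3.20 (3.06 to 3.57) for Dppa3, 3.10 (2.97 to 3.89) for Dppa4 and 2.79 (2.64 to 3.17) for Dppa2. All 5 members were at least 2-fold higher, and the background was 5.03% of 3894 genes that passed a filter of 50 CPM in either population and 100 summed reads. Dppa4 did not pass this filter, and the other 4 did. Ooep and Dppa5a had the 2 highest ratios of the 3894 genes. The median log2 ratio was 3.20 over the members and -0.02 over the genes that passed the filter. As this contrast chose the members, nothing follows from their count or from the ranks of Ooep and Dppa5a. Ooep, Dppa3 and Dppa2 passed the filter through their d16 level alone. The ratios moved with the choice of cells. When primed cells were limited to those under 500 CPM of the 5 naive markers (546 cells) and d16 cells to those at or above it (872 cells), they were 4.91 for Ooep, 5.08 for Dppa5a, 4.19 for Dppa3, 3.70 for Dppa4 and 3.59 for Dppa2. Over all cells of both tags they were lower, at 2.89, 3.04, 2.36, 2.19 and 2.15.

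In naive against primed Pou5f1-high cells, which shares the primed cells with the comparison above, the log2 ratio was 3.44 (3.39 to 3.50) for Dppa5a, 2.75 (2.60 to 3.55) for Dppa4, 2.65 (2.49 to 3.08) for Ooep, 2.43 (2.27 to 2.81) for Dppa2 and 1.43 (1.23 to 1.80) for Dppa3. All 5 were at least 2-fold higher, 3 of them (Dppa2, Dppa5a and Ooep) among the genes that passed the filter, and the background was 4.5% of 3801 genes. The median was 2.65 over the members and -0.07 over the genes that passed the filter. With the naive-marker limit the ratios were 4.60 for Dppa5a, 3.20 for Dppa4, 3.58 for Ooep, 3.04 for Dppa2 and 2.35 for Dppa3. The ratio of Dppa3 was under 2-fold in thinned cells (0.91), without the deepest 10% of cells (0.95) and with a pseudocount of 10 CPM (0.98). This larger pseudocount gave 1.55 for Dppa4.

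**Figure D3:**
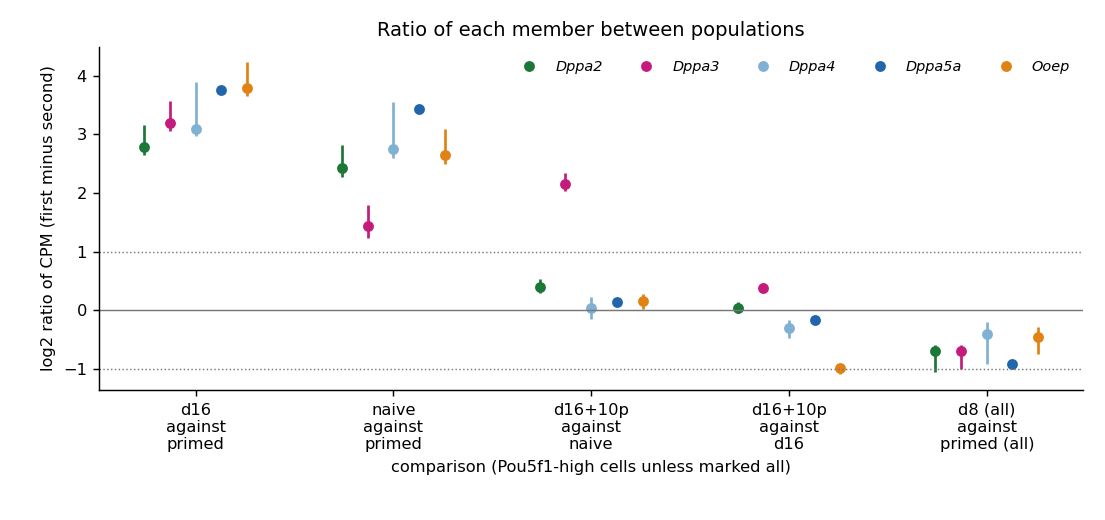
Log2 ratio of each member in 5 comparisons, first population minus second, with 1 CPM added. Bars are 95% counting intervals without that addition, and dotted lines mark 2-fold. Both comparisons with primed Pou5f1-high cells lie above 2-fold for all members, and of the comparisons of d16+10p only Dppa3 against naive passes 2-fold.

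Expanded reverted cells were compared with naive cells, both in 2iL. The log2 ratio of d16+10p over naive Pou5f1-high cells was 2.15 (2.04 to 2.33) for Dppa3, 0.40 (0.29 to 0.52) for Dppa2, 0.15 (0.13 to 0.16) for Dppa5a, 0.15 (0.03 to 0.28) for Ooep and 0.03 (-0.15 to 0.22) for Dppa4. Dppa3 alone of the 5 was at least 2-fold higher, where the background was 0.837% of 3586 genes, and it had the third-highest ratio among them. It passed the filter through its d16+10p level alone. Its rank is a description, as the members were chosen from levels by population. The 4 members that passed the filter were Dppa2, Dppa3, Dppa5a and Ooep. The median was 0.15 over the members and 0.03 over the genes that passed the filter. Under 15 other choices of cells, scaling and depth the Dppa3 ratio ran from 1.88 to 2.28. Genes on chromosome 6, where Dppa3 lies, had a median log2 ratio of -0.31 in this comparison (207 genes), the opposite direction to Dppa3, and of 0.27 in naive against primed cells (214 genes). Medians of chromosomes 9 and 16, which carry the other members, were 0.04 and 0.03. The part of the chromosome in the Dppa3 values was not tested.

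Expansion was followed by comparing d16+10p with d16 Pou5f1-high cells, which shares the d16+10p cells with the comparison above. The log2 ratio was 0.38 (0.30 to 0.46) for Dppa3, 0.04 (-0.06 to 0.14) for Dppa2, -0.17 (-0.19 to -0.16) for Dppa5a, -0.31 (-0.47 to -0.17) for Dppa4 and -0.99 (-1.10 to -0.91) for Ooep. None of the 5 was at least 2-fold lower, where the background was 1.14% of 3764 genes, and 4 passed the filter. Ooep was at the border, with a d16 level 1.99-fold that of d16+10p. It was past 2-fold under 4 other settings, for example -1.18 with the naive-marker limit. Over all cells of each tag, a setting that adds the many Pou5f1-low cells of d16, the ratios were 0.10 for Ooep, 0.71 for Dppa4, 0.92 for Dppa5a, 1.06 for Dppa2 and 1.41 for Dppa3. The signs of Ooep, Dppa4 and Dppa5a thus turned with the choice of cells. That of Dppa2 turned with the naive-marker limit (-0.12) and in thinned cells (-0.16). The median was -0.17 over the members and -0.02 over the genes that passed the filter.

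At d8 the members were below the primed population. Over all cells of each tag the level in d8 was 92.0 CPM for Dppa5a against 175 in primed, 5.44 against 9.51 for Dppa3, 4.82 against 6.96 for Ooep, 4.26 against 7.57 for Dppa2 and 1.95 against 2.91 for Dppa4. Every d8 level was under that of the macrophage-marker cells given above, as were the primed levels of Dppa5a and Ooep. The ratios below are therefore between low values, near those of a group that should lack the members. The log2 ratio was -0.92 (-0.98 to -0.88) for Dppa5a, -0.71 (-1.003 to -0.60) for Dppa3, -0.45 (-0.76 to -0.30) for Ooep, -0.71 (-1.05 to -0.60) for Dppa2 and -0.40 (-0.93 to -0.21) for Dppa4. None was at least 2-fold lower, where the background was 3.27% of 3918 genes, and only Dppa5a passed the filter. The tag of d8 held 11.7% Pou5f1-high cells and that of primed 32.3%. Within Pou5f1-high cells alone the ratio was -0.83 for Dppa2, -0.34 for Dppa4, -0.25 for Dppa5a, -0.10 for Dppa3 and -0.03 for Ooep, so that Dppa2 was lower still and the rest were closer to the primed level. In thinned cells of the whole tags the ratio of Dppa5a was past 2-fold (-1.19).

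Few cells carried much of the Dppa5a signal of the primed and d8 tags. Cells with at least 1000 CPM of Dppa5a numbered 570 (71.2%) in naive, 62 (3.40%) in primed, 72 (0.748%) at d8, 1278 (29.6%) at d16 and 926 (80.5%) in d16+10p. The 62 primed cells held 55.3% of the Dppa5a reads of their tag and the 72 d8 cells 22.3%. The remaining primed and d8 cells stood at 81.1 and 72.1 CPM. Of the 62 primed cells, 41 were Pou5f1-high and 41 had at least 500 CPM of the naive markers, and of the 72 d8 cells the numbers were 37 and 30.

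These cells also held the other members. In the 62 primed cells Dppa3 was at 112 CPM against 5.90 in the remaining 1764 primed cells, Ooep at 77.1 against 4.49, Dppa2 at 63.4 against 5.61 and Dppa4 at 26.4 against 2.08. Nanog, a factor of the pluripotency network, was at 400.5 CPM against 83.7, and Zfp42 (Rex1), a marker of naive cells, at 319 against 23.95. Pim2 and Fgf5, from the primed markers, were at 64.5 and 31.7 CPM in the 62 cells, against 123 and 61.8 in the remaining primed cells. With as much Dppa5a, they were at 12.4 and 16.8 CPM in d16 cells and at 8.75 and 14.7 in naive cells. The primed cells with high Dppa5a were thus high in every member, in Nanog and in Zfp42, and their Pim2 and Fgf5 lay in between. Dazl, an RNA-binding gene of germ cells, was at 803 CPM in them, at 900 in d16 cells and 174 in naive cells with as much Dppa5a. In the 72 d8 cells the levels were 86.7 CPM for Dppa3, 96.7 for Ooep, 33.6 for Dppa2, 20.05 for Dppa4 and 445 for Dazl. Both tags held more cells than were collected for them. Whether some of these cells carry the tag of another population was not tested.

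The converse cells, under 1000 CPM of Dppa5a in d16+10p (225 cells), set Dppa3 apart. They held Dppa3 at 107 CPM against 147 in the 926 cells above the limit, but Dppa2 at 15.2 against 86.3, Ooep at 13.9 against 68.6 and Dppa4 at 9.46 against 30.7 CPM. Fgf5, a marker of primed epiblast, was at 68.3 CPM in them and 14.6 above the limit. In d16 the 3037 cells under the limit held Dppa3 at 14.3 CPM against 119 above it. Naive cells were like d16+10p cells in this. Their 231 cells under the limit held Dppa3 at 19.8 CPM against 32.1 above it. Dppa2 was at 14.6 against 64.6, Ooep at 7.81 against 65.1 and Dppa4 at 9.76 against 32.0 CPM. Fgf5 was at 88.8 against 14.7 CPM in these naive cells. Cells under the limit were sequenced less deeply. Their median was 10420 against 24034 reads in d16+10p, 8691 against 14255 in d16 and 9488 against 23536 in naive. Dazl, not a member, also differed little in d16+10p, at 191 CPM under the limit and 226 above it.

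Members followed Pou5f1 within the d16 tag. Pou5f1-high d16 cells were higher than Pou5f1-low d16 cells by 8.00-fold for Ooep, 7.89-fold for Dppa5a, 6.06-fold for Dppa4, 5.90-fold for Dppa2 and 4.77-fold for Dppa3, with 1 CPM added. In d16+10p the same ratios were 1.86, 1.92, 1.70, 1.70 and 1.03-fold. The log2 ratio of Dppa3 there was 0.04 (-0.09 to 0.17). Up to the class of 300 to 500 CPM, every member was higher in each class of Pou5f1 than in the class below, on both sides of the limit of 150 CPM. In the 2574 cells under 50 CPM of Pou5f1, Dppa5a was at 220 CPM, Dppa3 at 17.3, Ooep at 9.09, Dppa2 at 7.28 and Dppa4 at 2.61. Just outside the limit (100 to 150 CPM, 228 cells) the values were 1309 for Dppa5a, 45.9 for Dppa3, 42.3 for Ooep, 37.3 for Dppa2 and 17.6 for Dppa4. Just inside it (150 to 200 CPM, 193 cells) they were 2054, 87.3, 73.6, 67.5 and 25.2 CPM. In the 329 cells from 500 CPM upward they were 4207, 109.5, 177, 106 and 49.7 CPM. Dppa3 alone did not have its highest value in that class, with 125 CPM (117 to 134) in the 387 cells from 300 to 500 CPM against 109.5 (100.4 to 119).

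**Figure D4:**
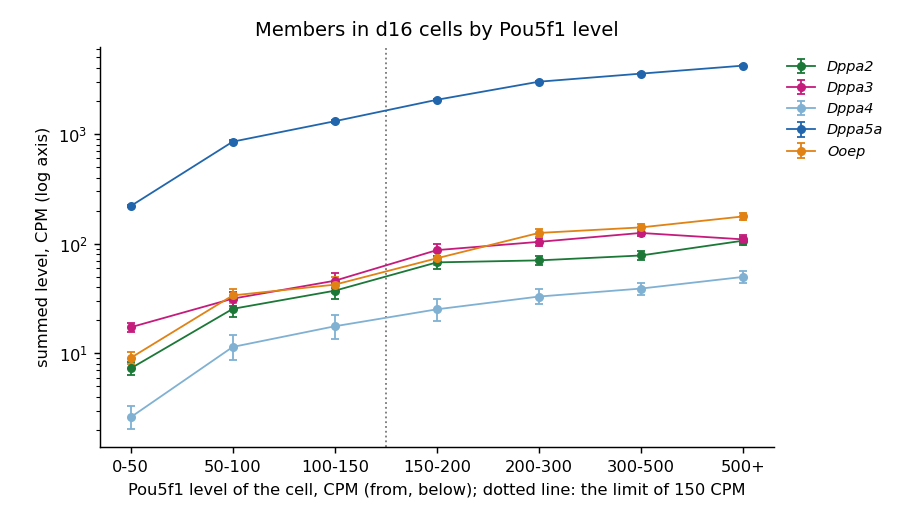
Summed level of each member in d16 cells (CPM, log axis) in 7 classes of the Pou5f1 level of the cell, with 95% Poisson intervals. The dotted line is the limit of 150 CPM. Levels climb from the lowest class on both sides of the limit, and Dppa3 levels off in the highest classes.

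Cell-to-cell spread was measured in Pou5f1-high cells thinned to 5000 reads, as the coefficient of variation (CV) and as the Fano factor, the variance over the mean, which is 1 for pure counting noise. Genes whose mean lay within 1.5 times that of the member served as comparison. The CV of Dppa5a was 0.506 in naive, 3.13 in primed, 0.623 at d16 and 0.475 in d16+10p cells. Its Fano factor was 3.48 in naive, 15.8 in primed, 6.50 at d16 and 3.34 in d16+10p, where genes of like mean had medians of 1.63 (44 genes), 1.43 (409 genes), 2.096 (18 genes) and 1.65 (38 genes). Dppa5a was thus more spread than the median gene of its level in each of the 4 populations, and the top 10% of primed cells held 83.9% of its reads. As spread entered the choice of the members, this is a description. Within cells above the naive-marker limit, its Fano factor was 2.62 in naive, 3.82 at d16 and 2.76 in d16+10p, and in primed cells under that limit it was 6.28.

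Dppa3 was spread too. Its Fano factor was 1.57 in naive, 2.87 at d16 and 2.24 in d16+10p cells, against medians of 1.21, 1.41 and 1.26 for genes of like mean. In d16, 27.7% of thinned cells had a read, while the median gene of like mean was detected in 36.9%, and 97.0% of 1346 such genes were detected in more cells. Its thinned d16 cells held up to 15 reads, and 2.15 on average where there was any. Few d16 cells therefore held much Dppa3, and most held none at this depth. Dppa2 had Fano factors of 1.41, 1.91 and 1.29 and Ooep of 1.24, 1.79 and 1.36 in naive, d16 and d16+10p, with d16 the highest of these populations for both. Medians of genes of like mean were 1.23, 1.39 and 1.24 for Dppa2 and 1.23, 1.41 and 1.23 for Ooep. Fano factors of Dppa4 in these populations were 1.26, 1.24 and 1.16, close to the medians of 1.20, 1.35 and 1.20 for genes of like mean. In primed cells Dppa2 had a Fano factor of 2.18, Dppa3 of 2.17 and Ooep of 1.46, against medians of 1.25, 1.27 and 1.24. Within primed cells under the naive-marker limit they were 1.12, 1.16 and 0.977.

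Between members, cells with more Dppa5a also had Ooep more often. Over the thinned Pou5f1-high cells the Spearman rho of Dppa5a with Ooep was 0.388 in d16 (1152 cells), 0.173 in d16+10p (856 cells) and 0.155 in naive (533 cells). The remaining 9 pairs of members lay between -0.05 and 0.15 in these populations. Cells of 1 sample share library and culture, so these values are descriptions. By class of Dppa5a reads, the share of d16 cells with an Ooep read was 5.91% at 0 to 4 reads (186 cells), 17.2% at 5 to 9, 35.4% at 10 to 14, 37.2% at 15 to 19, 52.5% at 20 to 24 and 60.1% (54.0 to 65.9) at 25 or more (273 cells). In d16+10p it went from 8.06% to 32.8%. Restricted to d16 cells above the naive-marker limit (856 cells), rho was 0.277 and the share in the highest class 60.2%. The share with a Dppa3 read in d16 was 16.1% at 0 to 4 Dppa5a reads, 34.3% at 5 to 9 and 27.1% at 25 or more, so it was lowest in the lowest class and did not climb further. In d16+10p its share was 30.6% in the lowest class and 35.9% in the highest.

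**Figure D5:**
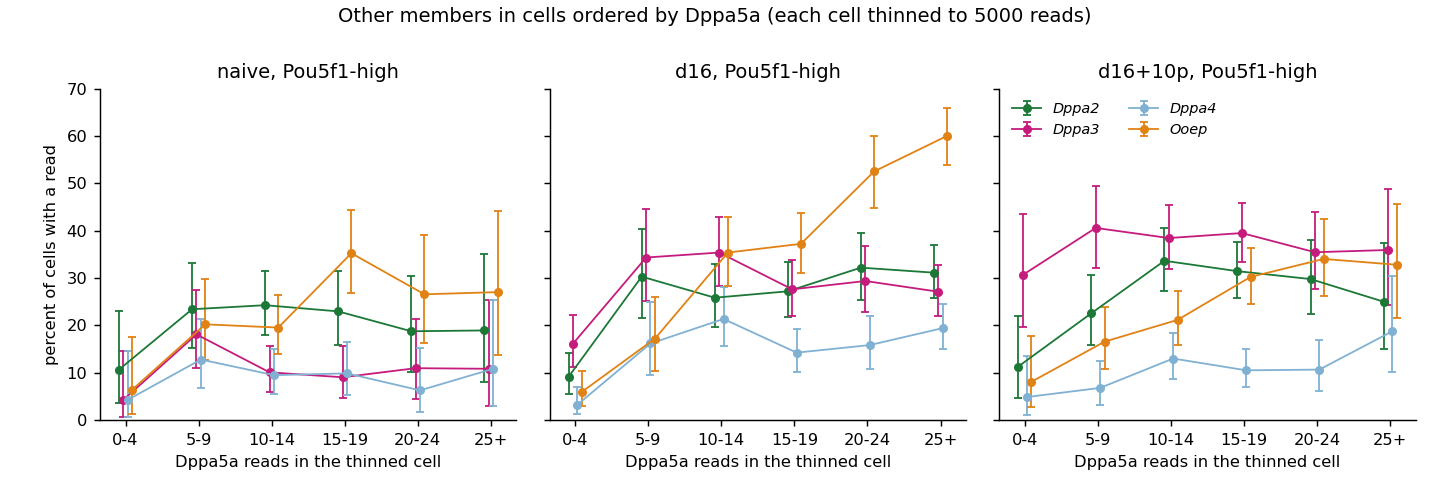
Percent of thinned Pou5f1-high cells with a read of Dppa2, Dppa3, Dppa4 or Ooep (y axis) by the number of Dppa5a reads in the same cell, for naive, d16 and d16+10p, with 95% Clopper-Pearson intervals. The Ooep line in d16 goes from 5.91% to 60.1%, and in d16 the shares of Dppa2, Dppa3 and Dppa4 are lowest at 0 to 4 Dppa5a reads.

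Detection of all members in the same cell was rare at this depth. All 5 were seen in 5 of 1152 d16 cells, 3 of 856 d16+10p cells and 0 of 533 naive cells. The most frequent number was 2 members in d16 (427 cells) and d16+10p (376 cells) and 1 in naive (246 cells).

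Of 14 genes of the 2-cell stage linked to Dppa2 and Dppa4, 11 were in the table and 0 passed the filter in any comparison. Cells with at least 500 CPM over these 11 genes numbered 36 at d16 and 2 each in d8 and d16+10p. In the 36 d16 cells Dppa3 was at 346 CPM (294 to 405) and Dppa2 at 269 CPM (223 to 321), above their levels of 109.9 and 81.4 CPM in d16 Pou5f1-high cells. Dppa4 was at 37.7 CPM (22.0 to 60.4) and Dppa5a at 2295 CPM (2158 to 2440). Ooep was at 46.6 CPM (28.9 to 71.3) and Pou5f1 at 147 CPM. Dppa4 was thus near its level in d16 Pou5f1-high cells (37.9 CPM), and Dppa5a and Ooep were under theirs (3341 and 135 CPM). The 36 cells were taken from the whole d16 tag, without the Pou5f1 limit. Over all d16 cells Dppa3 was at 53.1 CPM, Dppa2 at 37.1, Dppa4 at 16.9, Dppa5a at 1450 and Ooep at 58.1. Against these levels all members but Ooep were higher in the 36 cells, and the interval of Ooep held its level in all d16 cells.

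The partners of Ooep in the maternal complex were low. Of 7 genes listed, 6 were in the table and 0 passed the filter. Khdc3, a KH-domain gene of that complex, was at 21.6 CPM in naive, 0.165 in primed, 0.710 at d8, 9.06 at d16 and 5.67 in d16+10p Pou5f1-high cells. Tle6, its corepressor-like member, was at 8.83 CPM in naive, 2.81 in primed, 10.99 at d16 and 9.21 in d16+10p. Of 4 KH-domain relatives of Dppa5a and Ooep, 3 were in the table and 0 passed the filter. The order of Khdc3, highest in naive, was thus another than that of Ooep, highest in d16.

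Of 8 genes of DNA methylation around Dppa3, 6 passed the filter in the 4 comparisons of Pou5f1-high cells. In d16 against primed, 2 were at least 2-fold higher, Tet1 (log2 ratio 1.63, 1.52 to 1.77) and Tet2 (1.55, 1.39 to 1.80), both oxidases of methylated cytosine, and 1 was lower, the methyltransferase gene Dnmt3b (-1.94, -2.09 to -1.84). The median of the 6 was 0.40. In naive against primed, 2 were higher, Uhrf1 (1.008), the binding partner of Dppa3, and Tet2 (1.55), and Dnmt3b was lower (-2.14). In d16+10p against naive, where Dppa3 differed most, 2 were higher, Dnmt3b (1.05) and Tet1 (1.05), and Uhrf1 had a ratio of -0.39 (-0.45 to -0.33). None was past 2-fold in d16+10p against d16. Over all cells, 2 of the 5 compared were lower in d8 than in primed, Uhrf1 (-1.47) and Dnmt3b (-1.68). Dnmt3l, a cofactor of the Dnmt3 enzymes that did not pass the filter, was at 11.5 CPM in naive, 3.06 in primed, 34.3 at d16 and 4.81 in d16+10p cells.

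Of the 7 naive genes listed for comparison (Nanog, Zfp42, Esrrb, Klf2, Tfcp2l1, Nr5a2 and Dazl), 6 passed the filter in d16 against primed cells and all 6 were at least 2-fold higher, with a median log2 ratio of 2.92 against 3.20 for the members. In naive against primed all 7 passed and were higher, with a median of 3.12 against 2.65. The medians of the members took in those that did not pass, Dppa4 in both comparisons and Dppa3 in naive against primed. In d16+10p against d16, 1 of the 7 was at least 2-fold lower, Dazl (-1.86, -1.91 to -1.82), which was at 812 CPM at d16 and 223 CPM in d16+10p. In d8 against primed over all cells 2 passed, of which 1, Dazl, was lower (-1.11). Dppa1, 1 of 4 other Dppa symbols in the table, was at 0.374 CPM in naive and 0.091 CPM in d16+10p Pou5f1-high cells.

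Neighbours of the members within 3 protein-coding genes on each side numbered 16 in the table. In d16 against primed Pou5f1-high cells 5 passed the filter and 2 were at least 2-fold higher, Morc1 (3.11), a germ line gene 111513 bp from Dppa2, and Nanog (1.75), next to Dppa3. In naive against primed 6 passed and 3 were higher, Morc1 (3.69), Gdf3 (3.47), a TGF-beta family ligand beside Dppa3, and Nanog (1.77). In both comparisons of d16+10p, 6 passed and none was past 2-fold. In d8 against primed over all cells 4 passed and 1 was lower, the predicted gene Gm4737 (-1.24). Gdf3 was at 84.5 CPM in naive and 73.3 in d16+10p Pou5f1-high cells, Nanog at 484 and 391, and the glucose transporter gene Slc2a3 at 583 and 386. These neighbours of Dppa3 were thus lower in d16+10p than in naive cells, where Dppa3 was higher. Beside Ooep, the helicase gene Ddx43 was at 4.49 CPM in naive, 0.083 in primed, 7.13 at d16 and 5.31 in d16+10p. Gsta2, on the other side of Dppa5a, was at 1.81 CPM at most in Pou5f1-high cells.

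Over 10 groups (the Pou5f1-high and Pou5f1-low cells of each population), the patterns of the members were alike, with Pearson r of their log levels from 0.860 for Dppa3 with Dppa4 to 0.98997 for Dppa2 with Dppa5a. These points share a library and lines. Among 5011 genes the pattern nearest to that of Dppa2 was Dppa5a itself (r = 0.98997), then Rnf17 (0.989). Nearest to Ooep were Pecam1 (0.996), the naive surface marker CD31, and Rnf17 (0.993). Dppa5a was nearest to Mylpf (0.993) and Fmr1nb (0.9915), and Dppa4 to Phf11d and Zfp42 (0.9903 for both). Dppa3 stood further off, with Tasor (0.970), Rex2 (0.967) and Zfp988 (0.966), whose highest levels were in d16+10p, as was its own.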

How the data were processed

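Cells of 5 populations were tagged with oligonucleotides through biotinylated CD9 and CD63 antibodies, pooled, captured on BD Rhapsody and amplified by TAS-Seq. The deposited table holds unnormalized counts of reads by gene symbol for each cell. According to the methods and the submitters' processing notes, the authors trimmed reads with cutadapt 2.10, mapped them with Bowtie2 2.3.4.1 to Ensembl release 100 cDNA and ncRNA of GRCm38.p6, summed them by gene symbol and cell barcode, removed barcodes under the inflection of the knee plot, assigned tags and removed doublets by the tag ratio. The notes also name Seurat 2.3.4. The clusters in the paper were made from the cells that passed a further quality check, while all 17720 cells were used here. No molecular identifiers are described, so counts were treated as reads, and repeated reads of a molecule narrow the intervals.

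Cells were assigned to populations by the tag in the column name, and 0 columns had no matching tag. No barcode was shared between tags (0 of 17720). The table of the tag library was not used here. Summed CPM, log2 ratios with a pseudocount of 1 CPM, shares, thinned shares and spread were computed in Python 3.11.15 with numpy 2.4.6, scipy 1.17.1 and pandas 2.3.3, and figures were drawn with matplotlib 3.10.9. TMM factors from edgeR 4.0.16 in R 4.3.3 served only as an alternative scaling. The ratios, intervals and spread were tested on simulated data with 200 changed genes. Genes named are the 5 members, lists around them (maternal complex, KH-domain relatives, DNA methylation, the 2-cell stage, naive comparators, other Dppa symbols), the 3 nearest protein-coding genes on each side and the 3 genes of most similar pattern. Members and lists were chosen with earlier results of these data known. Mitochondrial genes did not enter the comparisons. Positions and sequences came from GENCODE M21 (GRCm38) through the gene symbols. Cells carry 3179 to 111822 reads. Alternatives were other Pou5f1 limits, cell filters, depths, pseudocounts, scalings and ways of summing. With 1 sample per population no test was made.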

Additional observations from a re-analysis of the deposited data

How the results depend on the processing

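Of 72 counts of members past 2-fold under another setting, 64 were within 1.5 times the value reported, and no ratio past 2-fold changed sign. For d16+10p against d16 the count of 0 became 2 (Dppa2 and Dppa3, both higher) over all cells of the tags, and 1 (Ooep, lower) with a Pou5f1 limit of 300 CPM, with limits on the genes detected per cell, with the naive-marker limit, and with totals without mitochondrial reads. For d8 against primed the count of 0 became 1 (Dppa5a, lower) without the deepest 10% of cells, with the mean of CPM per cell, and in cells thinned to 5000 reads. The naive-marker limit and the setting without macrophage-marker cells were chosen after seeing the data. TMM factors shifted all log2 ratios of d16+10p over d16 by 0.14, and those of the other comparisons by at most 0.07. Of 360 log2 ratios of single members 247 stayed within counting error, and 54 of 60 Fano factors were within 1.5 times the value reported. Other Pou5f1 limits were not run for d8 against primed, where all cells entered. No paired analysis was possible because each population was 1 sample.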
